A study of Homo sapiens with 45 samples.

Results

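The pocket proteins, the DREAM complex that they form with MuvB, and the transcription factors MYBL2 and FOXM1 that succeed it were followed here as 10 genes across 39 siRNA knock-downs in A375 cells, an established human melanoma line. The genes were chosen by name, as 3 pocket proteins (RB1, RBL1 and RBL2), 5 MuvB subunits (LIN9, LIN37, LIN52, LIN54 and RBBP4) and the factors FOXM1 and MYBL2, out of 19775 genes that have a probe set with a name of their own. They have 24 of the 54675 probe sets, and each gene is represented by its main probe set, the one with the highest mean over all arrays. The series holds 45 Affymetrix arrays. Of these, 39 carry RNA of cells that received pooled siRNA duplexes against 1 gene each, 3 of cells that received control siRNA and 3 of untreated cells, all of the same A375 line and with RNA of transfected cells taken 48 hours after transfection. Each targeting siRNA was given to 1 culture and read on 1 array, so single knock-downs have no replicate. RB1, RBL2 and FOXM1 are themselves siRNA targets. The study places the targeting arrays in 3 experimental batches, with 9 arrays in KD1, 23 in KD2 and 7 in KD3, and the RB1 siRNA array lies in KD1 while the RBL2 and FOXM1 siRNA arrays lie in KD2. For the arrays of control siRNA and of untreated cells, the sources used here name no batch.

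Pocket proteins bind E2F transcription factors and hold back their target genes until cyclin-dependent kinases phosphorylate them. RB1 acts mainly on the activating E2Fs, whereas RBL1 (p107) and RBL2 (p130) join repressive E2Fs and the MuvB core to form DREAM, which silences G1/S and G2/M genes in quiescent cells and in G1. Within MuvB, LIN54 is the DNA-binding subunit, LIN52 contacts the pocket protein, RBBP4 is a histone-binding protein shared with other chromatin complexes, LIN37 takes part in repression, and LIN9 takes part in activation. Later in the cycle the pocket protein leaves, MYBL2 (B-MYB) binds MuvB, and FOXM1 is then recruited to drive the G2/M genes. MYBL2 and FOXM1 are themselves cell cycle genes repressed by DREAM.

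The promoters of these genes are shown first, because E2F and DREAM act through short sequence elements. RefSeq promoter windows of assembly GRCh38.p14, which run from 250 bases before to 50 bases after an annotated start, were found for 9 of the 10 genes, in 15 windows, with none for FOXM1. The only RB1 window lies at an internal start and is left out of the counts, which leaves 14 windows of 8 genes. Below are the windows of 3 genes, picked as examples of different elements and with the array values known. Whether elements in a window go with values in the arrays was not tested. RBL1 is on the minus strand at chr20:37095948-37096247, MYBL2 on the plus strand at chr20:43666864-43667163 and RBL2 on the plus strand at chr16:53434221-53434520. Capitals mark E2F-type letters (TTTCCCGC, TTTCGCGC, TTTGCCGC, TTTGGCGC or GGCGGGA) and letters of the cell cycle genes homology region, CHR (TTTGAA or TTTAAA), searched on both strands.
RBL1: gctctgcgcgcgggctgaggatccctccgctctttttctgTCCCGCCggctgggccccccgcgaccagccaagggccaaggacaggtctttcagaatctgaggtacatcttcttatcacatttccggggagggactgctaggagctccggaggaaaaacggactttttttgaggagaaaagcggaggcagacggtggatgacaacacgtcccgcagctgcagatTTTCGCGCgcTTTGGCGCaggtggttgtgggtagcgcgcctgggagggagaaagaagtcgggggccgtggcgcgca
MYBL2: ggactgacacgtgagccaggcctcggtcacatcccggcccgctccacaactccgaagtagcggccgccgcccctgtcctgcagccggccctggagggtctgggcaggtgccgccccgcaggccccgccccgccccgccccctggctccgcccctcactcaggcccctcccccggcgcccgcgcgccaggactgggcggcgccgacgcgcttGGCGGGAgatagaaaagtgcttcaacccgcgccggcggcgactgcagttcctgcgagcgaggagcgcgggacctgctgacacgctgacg
RBL2: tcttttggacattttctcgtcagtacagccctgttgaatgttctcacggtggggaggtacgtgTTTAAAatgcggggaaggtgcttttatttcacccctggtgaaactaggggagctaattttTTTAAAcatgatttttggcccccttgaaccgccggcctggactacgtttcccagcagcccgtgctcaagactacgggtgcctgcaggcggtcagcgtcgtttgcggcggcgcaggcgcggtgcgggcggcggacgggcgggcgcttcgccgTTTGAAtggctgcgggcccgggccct
The RBL1 window holds 3 E2F-type matches, which begin at bases 41, 225 and 235 of the window, and the MYBL2 window holds 1, at base 212, with no CHR letters in either. The RBL2 window holds no E2F-type letters and 3 CHR matches, at bases 64, 124 and 275, and the forkhead letters TAAACA 2 times, at bases 62 and 126, each overlapping a CHR match.

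Of these 14 windows, 9 held E2F-type letters (64.3%), against 17.3% of the 35116 windows in the table, and 6 held CHR letters (42.9%), against 24% of all windows. The pairs of windows of LIN54 and of RBBP4 overlap and hold the same match, so by gene the counts were 7 of 8 for E2F-type and 4 of 8 for CHR letters, against 20.1% and 27.9% of the genes in the table. Of 44 windows of genes listed as G1/S targets of E2F and DREAM, 31 held E2F-type letters (70.5%) and 6 CHR letters (13.6%). Of 48 windows of genes listed as G2/M targets of DREAM, MYBL2 and FOXM1, 16 held E2F-type letters (33.3%) and 37 CHR letters (77.1%). The MYB letters AACGG were in 22 of these 48 windows (45.8%), against 19.7% of all windows, and the forkhead letters TAAACA in 4 (8.33%), against 12.3%. A match of letters is a description of the window and does not show that a factor binds there. Both lists were written from what is known of these targets, and with earlier results of these data known, so their share of such letters is not independent of their choice.

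By level, RB1, RBL2, FOXM1, MYBL2 and RBBP4 had medians above noise, a limit of 8.59 set at 1.5-fold over the median BioB spike-in probe set of the 3′ end, on the log2 scale of intensity used throughout. RBL1 (median 6.40), LIN9 (5.62), LIN37 (7.56), LIN52 (7.25) and LIN54 (3.87) lay below it, so their differences rest on dim signals. The main probe sets of FOXM1 and LIN9 are of the type that Affymetrix marks as able to bind related transcripts as well. Among 7 melanocyte lineage markers, SOX10 (median 10.91), S100B (9.87) and MITF (9.01) were above noise while PMEL (5.41), MLANA (4.12) and TYR (5.59) were not. Of 11 markers of epithelium, leukocytes, fibroblasts and endothelium, only KRT18 (11.92) was above noise, with EPCAM at 3.42 and PTPRC at 3.84.

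**Figure D1:**
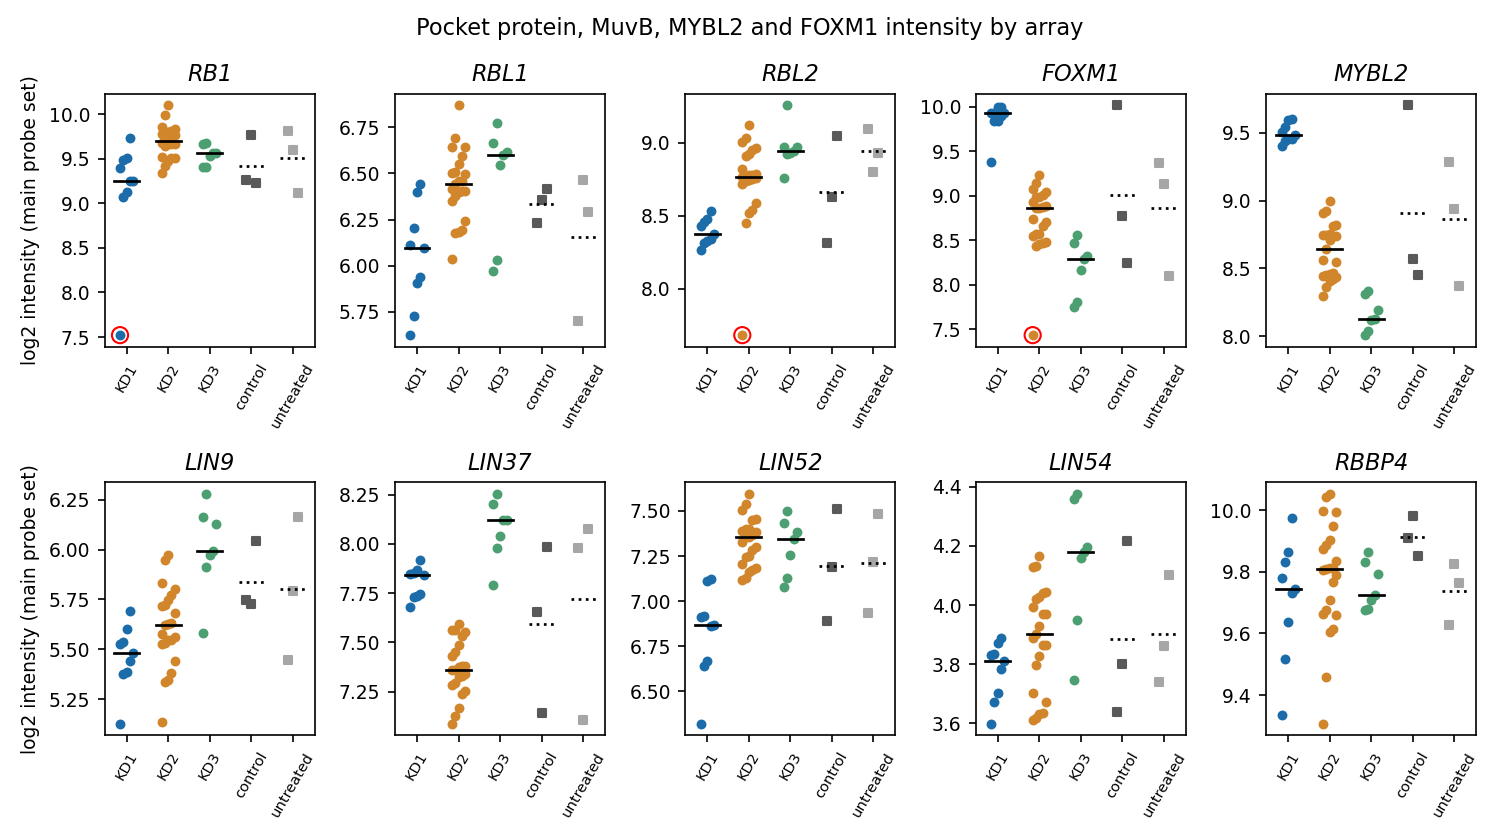
Log2 intensity of the main probe set of each of the 10 genes (vertical axis, a scale per panel) in the arrays of batches KD1, KD2 and KD3 (circles, solid lines at the batch median) and in control siRNA and untreated arrays (squares, dotted lines at the mean of 3). Red rings mark the array of the siRNA against that gene, at 7.52 for RB1, 7.68 for RBL2 and 7.43 for FOXM1, and FOXM1 and MYBL2 stand highest in KD1 and lowest in KD3.

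FOXM1 and MYBL2 differed strongly between the experimental batches. In the 9 KD1 arrays FOXM1 ran from 9.37 through a median of 9.92 to 10.00. It ran from 7.43 through 8.86 to 9.23 in the 23 KD2 arrays, and from 7.75 through 8.28 to 8.55 in the 7 KD3 arrays. Every KD1 array was above every KD2 and KD3 array, and the low end of KD2 is the FOXM1 siRNA array. MYBL2 ran from 9.40 through 9.48 to 9.60 in KD1, from 8.29 through 8.64 to 8.997 in KD2, and from 8.01 through 8.13 to 8.33 in KD3, which put KD1 clear of both other batches and left KD2 and KD3 with a narrow overlap. In limma, FOXM1 was higher in KD1 than in KD2 by 1.12 (SE 0.12, adjusted p = 1.45e-10) and lower in KD3 than in KD2 by 0.54 (adjusted p = 0.00066), and MYBL2 was higher by 0.87 (SE 0.07, adjusted p = 4.19e-15) and lower by 0.46 (adjusted p = 4.75e-07).

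RBL1, RBL2, LIN9 and LIN54 had their lowest medians in KD1 and their highest in KD3. RBL2 had a median of 8.37 in KD1, 8.76 in KD2 and 8.94 in KD3. RBL1 was at 6.10, 6.44 and 6.60 in the same order, LIN9 at 5.48, 5.62 and 5.99, and LIN54 at 3.81, 3.90 and 4.18. LIN37 had no such order, with 7.84 in KD1, 7.36 in KD2 and 8.12 in KD3, and no KD2 array reached the level of any KD1 or KD3 array. Between KD1 and KD2, 7 of the 10 differed (FOXM1, MYBL2 and LIN37 higher in KD1, RB1, RBL1, RBL2 and LIN52 lower), while 44.5% of all probe sets did. Between KD3 and KD2, 5 differed (LIN9, LIN37 and LIN54 higher in KD3, FOXM1 and MYBL2 lower), against 41.8% of all. Between KD3 and KD1, 9 differed, all but RBBP4, against 48.1%, with LIN9 higher in KD3 by 0.54 (SE 0.10, adjusted p = 5.68e-06), RBL2 higher by 0.57 (SE 0.11, adjusted p = 2.98e-05) and FOXM1 lower, at -1.67 (SE 0.15, adjusted p = 9.56e-13). Without the 3 arrays whose siRNA targets RB1, RBL2 or FOXM1, RB1 no longer passed between KD3 and KD1 (0.19, adjusted p = 0.0592) and RBL2 passed between KD3 and KD2 (0.19, adjusted p = 0.0139). The batches also hold different siRNAs, so batch and siRNA set cannot be told apart in these differences. No batch was repeated, so the SEs and p-values measure the spread between siRNA arrays within batches, not between repeats of a batch. The siRNA arrays are therefore given below as differences from the median of their own batch, in which the array in the middle of a batch is 0 by construction.

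Control siRNA did not separate from no treatment in any of the 10 genes. FOXM1 was 10.02, 8.77 and 8.24 in the control siRNA arrays, against 9.36, 9.13 and 8.09 in the untreated arrays. The SD was 0.91 for control siRNA and 0.68 for untreated cells (n = 3 each), so the groups overlapped and spread widely. MYBL2 was 9.71, 8.57 and 8.45 with control siRNA, against 9.29, 8.94 and 8.37 untreated, and again the groups overlapped. RBL2 averaged 8.66 ± 0.37 with control siRNA and 8.94 ± 0.15 untreated (SD, n = 3 each), a difference of -0.28 (limma, SE 0.20, adjusted p = 1), and RBBP4 averaged 9.91 ± 0.07 and 9.74 ± 0.10, a difference of 0.17 (SE 0.12, adjusted p = 1). None of the 10 passed in limma, none had an unadjusted p under 0.05, and 0% of all 54675 probe sets passed, of which 97 had such a p. With the replicate number as a block, again none passed and 1643 probe sets had such a p, none of them of the 10 genes. The third control siRNA array and the third untreated array were near copies, with 95.4% of probe sets within 1.1-fold of each other, where the next closest pair reached 59.9%. Without both, none passed either, 1135 probe sets and 1 of the 10 genes had an unadjusted p under 0.05, and RBL2 differed by -0.48. Without the first control siRNA array the RBL2 difference was -0.10, and without the third it was -0.47. The labels do not say that these arrays came from separate experiments, so these p-values measure only the spread between the arrays.

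siRNA against each of the 3 targeted genes went with a transcript level of that gene below every other array. In GRCh38.p14, RB1 lies at chr13:48303751-48481890, RBL2 at chr16:53434471-53491648 and FOXM1 at chr12:2857680-2877174. RB1 was 7.52 in the RB1 siRNA array, against a KD1 median of 9.25 and a lowest value of 9.07 in the other KD1 arrays, a difference of -1.73 that leaves 30.2% of the median intensity. RBL2 was 7.68 in the RBL2 siRNA array, against a KD2 median of 8.76 and a lowest other value of 8.45, a difference of -1.08 (47.3% left). FOXM1 was 7.43 in the FOXM1 siRNA array, against a KD2 median of 8.86 and a lowest other value of 8.44, a difference of -1.43 (37.2% left). The study kept siRNAs that lowered their target, so these falls describe how the arrays were chosen and are given with no test. The second probe set of RB1 was at -1.14 and that of RBL2 at -1.39, and FOXM1 has no second one.

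**Figure D2:**
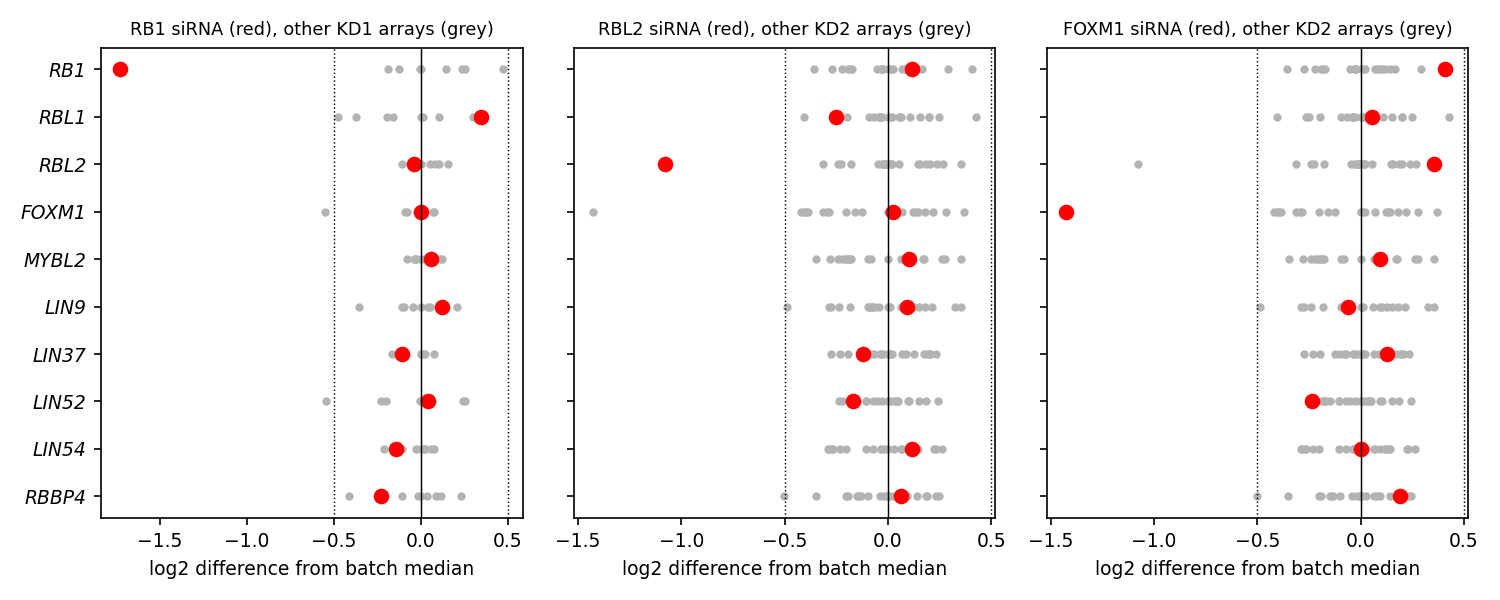
Log2 difference from the batch median (horizontal axis) of each of the 10 genes in the arrays of RB1, RBL2 and FOXM1 siRNA (red) and in all other arrays of the same batch (grey), with dotted lines at 0.5 in each direction. In each panel the targeted gene alone lies past 0.5 in the red array, at -1.73, -1.08 and -1.43.

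In the RB1 siRNA array most E2F and DREAM target genes and RBL1 lay above the batch median, while FOXM1 and MYBL2 lay at or near it. After RB1 siRNA none of the other 9 genes lay past 0.5 on the log2 scale in either direction, where 1.31% of all 19774 other genes did upward and 1.33% downward. RBL1 was 6.44, against a KD1 median of 6.10, a difference of 0.35 that was the highest of the 9 KD1 arrays, and its next probe set was at 0.56, also the highest, while its 2 dimmest were at -0.12 and 0.12. FOXM1 was 9.92, the batch median itself, MYBL2 was at 0.06, LIN9 at 0.12, RBL2 at -0.04 and RBBP4 at -0.23. Of the 33 measured G1/S targets, 31 were higher than the batch median and 0 lower, with a median difference of 0.34, the highest list median in KD1, while over all genes 45.2% were higher and the median was 0. CDT1, which licenses replication origins, was highest at 0.61, followed by the uracil glycosylase UNG at 0.58 and the helicase subunit MCM2 at 0.56, and ORC1 and TK1 were at 0. CDT1 and ORC1 had medians below noise. Of the 44 G2/M targets, 40 were higher and 1 lower, with a median of 0.25, again the highest in KD1. RACGAP1, needed for cytokinesis, was at 0.72, CDK1 at 0.61 and the kinesin KIF23 at 0.61, whereas the survivin gene BIRC5 was at -0.09. Past 0.5 were 4 G1/S and 6 G2/M targets, all higher. Over the 8 other KD1 arrays the list medians ran from -0.27 to 0.11 for G1/S and from -0.12 to 0.06 for G2/M targets, so both lists stood outside that range. In RNA of whole cultures, a different share of cells in a cycle phase and a different amount of RNA per cell cannot be told apart. Among the binding partners and upstream regulators of pocket proteins, CCNE2 (cyclin E2) was at 0.60 and E2F5 at -0.53, the sole 2 of 24 past 0.5. Both had medians below noise.

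In the RBL2 siRNA array nearly every target gene lay slightly above the batch median. No other member lay past 0.5 after RBL2 siRNA, and few genes did at all, 0.111% upward and 0.228% downward. RB1 was at 0.12, MYBL2 at 0.10, FOXM1 at 0.02 and LIN9 at 0.09. RBL1 was at -0.25 by its main probe set and at 0.31 by the next, so its direction depends on the probe set. All 33 G1/S targets were higher than the batch median, with a median of 0.16, led by CHAF1B of the chromatin assembly factor at 0.34 and the primase subunit PRIM1 at 0.31. CHAF1B had a median below noise. Over all genes 50.9% were higher and the median was 0.003. Of the 44 G2/M targets, 42 were higher and 2 lower, with a median of 0.21, the 2nd highest of 23 arrays in KD2 and led by the kinesin KIF14 (0.47), ASPM (0.42) and the proliferation marker MKI67 (0.41). None of these targets lay past 0.5. The G1/S median was only the 7th highest in KD2, and the SD of the list medians over the other arrays of that batch, 0.19 for either list, is as large as these differences.

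**Figure D3:**
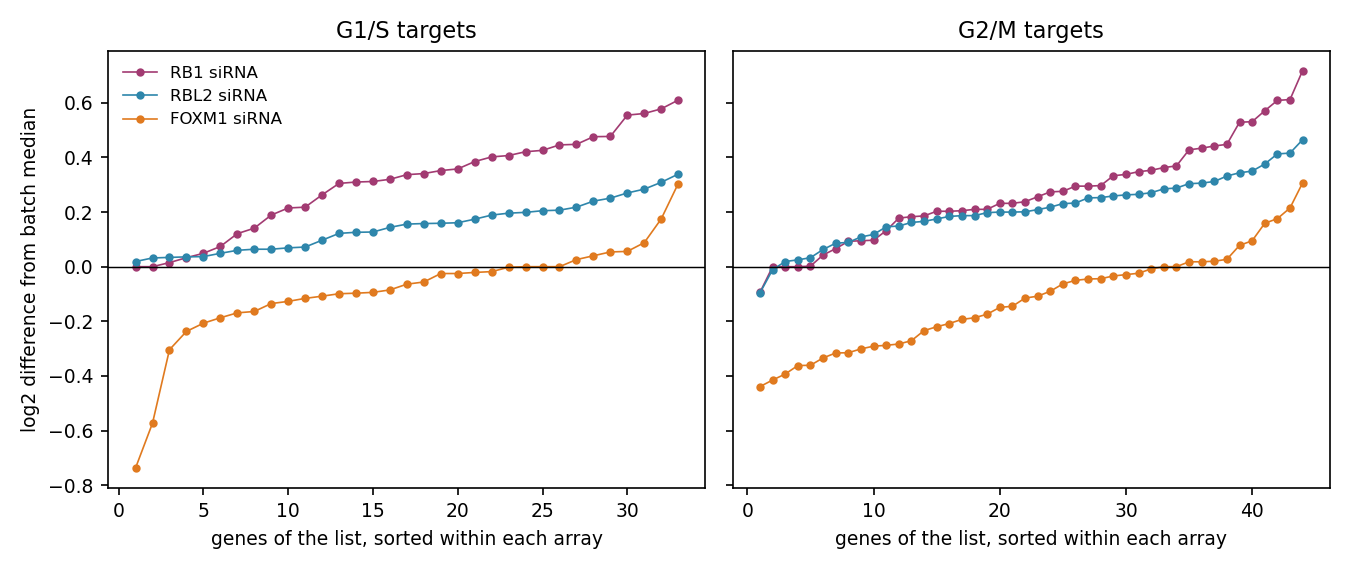
Log2 difference from the batch median (vertical axis) of the 33 measured G1/S targets and the 44 G2/M targets in the arrays of RB1, RBL2 and FOXM1 siRNA, sorted within each array (horizontal axis). The medians are 0.34 and 0.25 after RB1 siRNA, 0.16 and 0.21 after RBL2 siRNA, and -0.06 and -0.11 after FOXM1 siRNA.

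In the FOXM1 siRNA array most G2/M targets lay slightly below the batch median and MYBL2 near it. Other members past 0.5 numbered 0, against 1.66% of all genes upward and 1.09% downward. MYBL2 was 8.74, against a KD2 median of 8.64. RB1 was 10.10, against a median of 9.69, and RBL2 was 9.12, against 8.76, differences of 0.41 and 0.35 that were the highest of 23 for both genes. Their second probe sets were at -0.17 and -0.10, so neither difference holds over probe sets. LIN52 was at -0.24, the lowest of 23, and its second probe set at 0.31, the highest. RBBP4 was at 0.19 by its main probe set, and between -0.86 and 0.15 over its 5 others. Of the 44 G2/M targets, 32 were lower and 10 higher, with a median of -0.11 and none past 0.5, and over all genes 44.2% were lower with a median of 0.008. The G2/M median was -0.18 against all other arrays, which include KD1 and KD3, and -0.28 against control siRNA, whose batch is not named. Neither reference is confined to KD2, so these 2 values can hold differences between batches. Within KD2, the G2/M medians of the 22 other arrays ran from -0.45 to 0.265 with an SD of 0.195, so -0.11 lay inside their spread. CCNA2 (cyclin A2) was at -0.44, the ubiquitin-conjugating enzyme UBE2C at -0.42 and ASPM at -0.39, while ECT2 (0.31) and RACGAP1 (0.22) were higher. Of the 33 G1/S targets, 23 were lower and 7 higher, with a median of -0.06, where the SD of the G1/S medians over the other KD2 arrays was 0.194. CDC6, the replication licensing factor, at -0.74 and thymidine kinase TK1 at -0.57 were the 2 past 0.5, and CDC6 had a median below noise. Among the upstream regulators, CCND3 was at -0.45, the CDK inhibitor CDKN1C at -0.43 and CDK6 at -0.32, all short of 0.5.

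Within KD2 the arrays lowest in FOXM1 were not ordered in the same way by their G2/M medians. The arrays next lowest in FOXM1 were those of SP100, HDAC3, MAP2K1 and CHEK1 siRNA, followed by CDK4 siRNA. The first 4 had FOXM1 at -0.42, -0.40, -0.39 and -0.39 and G2/M medians of -0.20, -0.28, -0.45 and -0.26, all below the -0.11 of the FOXM1 siRNA array, which was 7th lowest of 23. CDK4 siRNA had FOXM1 at -0.31 and a G2/M median of 0, above that array. In the 4 arrays before it MYBL2 was at -0.24, -0.22, -0.28 and -0.19, against 0.09 after FOXM1 siRNA. At the other end, CCNA2 siRNA had FOXM1 at 0.37 and MYBL2 at 0.35 with a G2/M median of 0.04, and CCNB1 siRNA had 0.28, 0.28 and 0.27. With 1 array for each siRNA these orders are descriptions.

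Over all 39 arrays, with the targets' own values left out, 6 of the 387 values of the 10 genes lay 0.5 or more below the batch median and 0 above. Over all genes the shares were 0.608% and 0.65%. The 6 were RBL1 after MITF (-0.63) and MCM2 siRNA (-0.57), FOXM1 after TCEA1 (-0.55) and MCM2 siRNA (-0.53), LIN52 after CTNNB1 siRNA (-0.55) and RBBP4 after CDC16 siRNA (-0.50). Several siRNAs recurred at the low end of more than 1 gene. MITF siRNA, against the melanocyte lineage factor, also had FOXM1 at -0.48, LIN9 at -0.41 and LIN54 at -0.43, the lowest LIN54 of all 39. In that array all 33 G1/S targets and all 44 G2/M targets were lower than the batch median, with medians of -0.38 and -0.53 and 25 G2/M targets past 0.5, while 41.2% of all genes were lower and 169 of 19774 lay past 0.5 downward. MAP2K1 siRNA, against the kinase MEK1, had the lowest LIN9 (-0.49). TCEA1 siRNA, against a transcription elongation factor, had RBL1 at -0.47 and LIN9 at -0.36. CCNA2 siRNA stood highest of all 39 for FOXM1, MYBL2 (0.35) and RBL1 (0.43). CDK7 siRNA had the highest RB1 (0.48), and STAT6 siRNA the lowest MYBL2 (-0.35) and, apart from the RB1 siRNA array, the lowest RB1 (-0.35). These values rest on the main probe sets, and RBL1, LIN9, LIN52 and LIN54 are below noise.

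Across the 39 arrays, centred on batch medians, FOXM1 moved with MYBL2 and with LIN9 and with none of the pocket proteins at the threshold used. Of the 45 pairs of the 10 genes, these 2 passed, by a permutation test of Spearman's rho within batches (100000 permutations, two-sided). P-values were adjusted over all 19774 genes tested with a member, and the larger of a pair's 2 adjusted p-values was taken. Both pairs were positive. Over all genes, 2.94% passed as positive with FOXM1, 2.34% with MYBL2, 3.02% with LIN9, 0.111% with RB1 and 0.0759% with LIN37. With RBL1, RBL2, LIN52, LIN54 and RBBP4, 0% of all genes passed in either direction. The lack of a passing pair with those genes is therefore not particular to the members. FOXM1 and MYBL2 had rho = 0.65 (permutation p = 3e-05, adjusted p = 0.00844), Pearson's r = 0.46 (permutation p = 0.00561) and r = 0.745 without the 2 arrays farthest in FOXM1, those of FOXM1 and TCEA1 siRNA. Their rho was 0.76 in KD2, 0.57 in KD3 and 0.02 in KD1, so the relation was not seen among the 9 KD1 arrays. FOXM1 and LIN9 had rho = 0.66 (permutation p = 3e-05, adjusted p = 0.00547), Pearson's r = 0.55 (permutation p = 0.00061) and r = 0.68 without the same 2 arrays, with 0.70 in KD2, 0.86 in KD3 and -0.07 in KD1. In KD2 alone the adjusted p of FOXM1 and LIN9 was 0.0653. Before centring by batch, FOXM1 and LIN9 had rho = -0.25, with LIN9 highest in KD3, where FOXM1 was lowest.

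**Figure D4:**
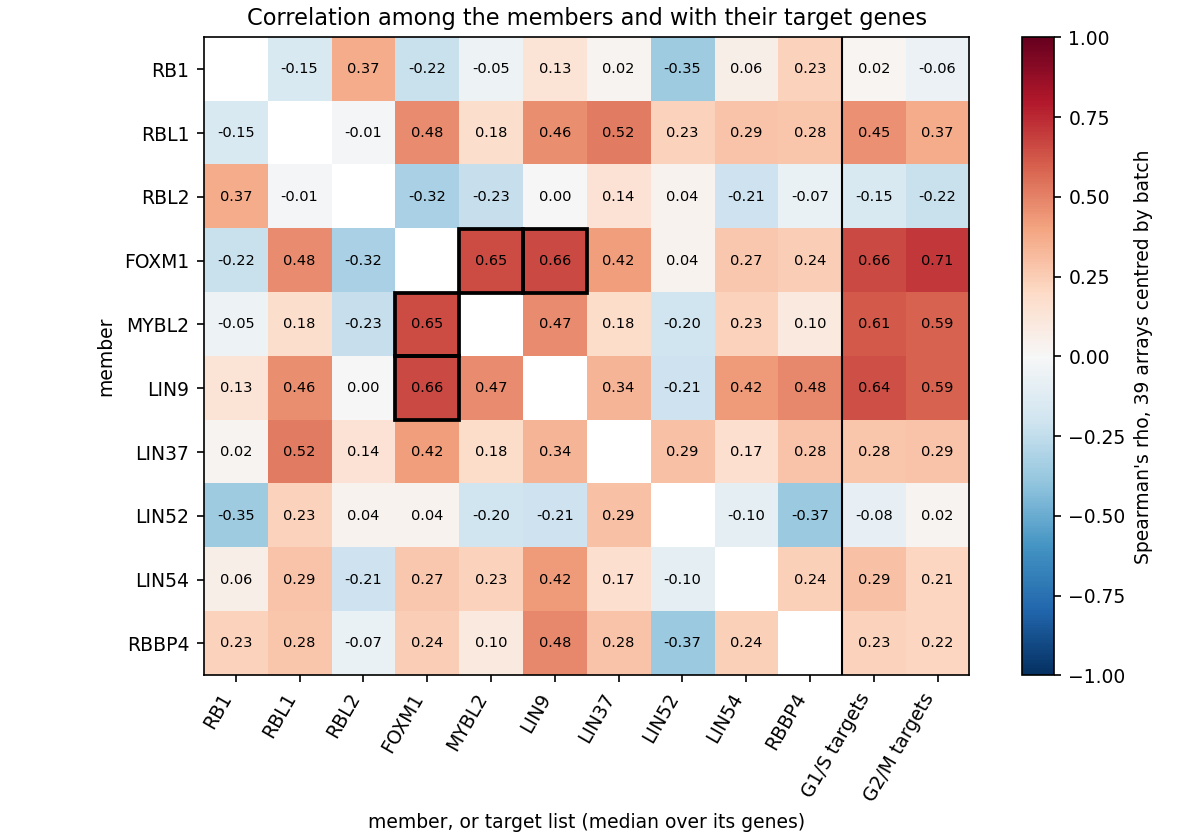
Spearman's rho over 39 siRNA arrays, each probe set centred on its batch median, between the 10 genes (left of the line) and, as the median over genes, with 33 G1/S and 44 G2/M targets (right of the line). Colour runs from -1 (blue) to 1 (red), and black frames mark the 2 pairs that passed, FOXM1 with MYBL2 (0.65) and FOXM1 with LIN9 (0.66).

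The other pairs did not pass. MYBL2 and LIN9 had rho = 0.47 (adjusted p = 0.0917), RBL1 and LIN37 0.52 (adjusted p = 0.113), FOXM1 and RBL1 0.48 (adjusted p = 0.15) and RBL1 and LIN9 0.46 (adjusted p = 0.18). LIN9 and RBBP4 had 0.48 (adjusted p = 0.656). RB1 and RBL2 had 0.37, but 0.12 by Pearson's r, and RBL2 and FOXM1 had -0.32, with -0.65 in KD1, -0.48 in KD2 and 0.46 in KD3. Among the 5 MuvB subunits, of which RBBP4 alone is above noise, rho ran from -0.37 for LIN52 and RBBP4 to 0.48 for LIN9 and RBBP4. The negative pairs all involve LIN52, and the 6 pairs without it ran from 0.17 to 0.48. By probe set, RBBP4's next probe set followed its main one (rho 0.79) while LIN52's second did not (-0.11).

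Most target genes of the complexes passed with FOXM1, MYBL2 and LIN9, and none with the other 7 genes. Both lists were chosen with earlier results of these data known, so the counts are not independent of that choice. With FOXM1, 31 of 33 G1/S targets and 42 of 44 G2/M targets passed with a positive rho and none with a negative one, where 2.94% of all genes passed as positive and 0.657% as negative. The median rho was 0.66 for the G1/S and 0.71 for the G2/M list, against -0.02 over all genes, and CDC25B was lowest at 0.34. Within batches the 2 medians were 0.79 and 0.74 in KD2, 0.75 and 0.86 in KD3, and -0.07 and 0.20 in KD1. Without the arrays of RB1, RBL2 and FOXM1 siRNA they were 0.70 and 0.73. With MYBL2, 29 G1/S and 35 G2/M targets passed as positive (median rho 0.61 and 0.59), where 2.34% of all genes did, and 0.308% as negative. With LIN9, 31 and 37 passed (median 0.64 and 0.59), where 3.02% of all genes did, and 0.774% as negative. In KD1 the medians were 0.38 and 0.32 for MYBL2 and 0.50 and 0.25 for LIN9. The 2 other probe sets of LIN9, at mean levels of 3.34 and 3.11, had median rho of 0.14 to 0.18 with either list.

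**Figure D5:**
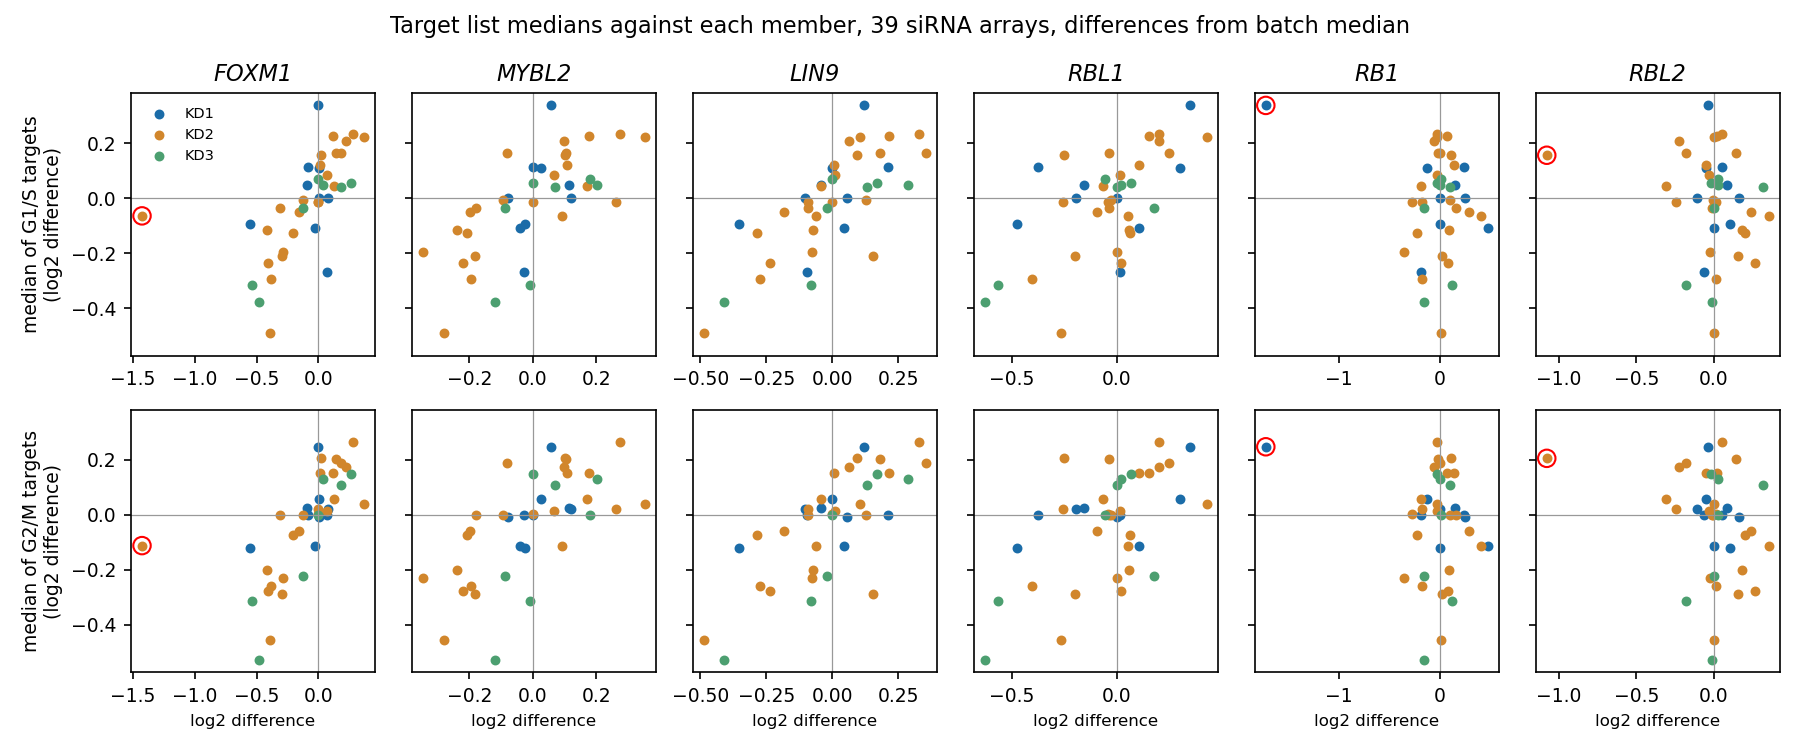
Median log2 difference of 33 G1/S targets (top row, vertical axis) and 44 G2/M targets (bottom row) against the log2 difference of 6 of the 10 genes (horizontal axes) in 39 siRNA arrays coloured by batch, the list leaving out the array's own target. Red rings mark the siRNA against that gene, and the FOXM1 siRNA array, at -1.43, lies far left of the slope that the other arrays form.

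For RBL1, rho was positive for all 33 G1/S targets (median 0.45, from 0.27 for MCM6 to 0.57 for RFC4) and all 44 G2/M targets (median 0.37), yet none passed, as 0% of all genes did with RBL1, although 2453 genes had an unadjusted p under 0.05. For the G1/S list its 2 next probe sets had medians of 0.47 and 0.44, and the dimmest 0.10. RBL2 ran the other way in the G1/S list, with 1 of 33 positive, a median rho of -0.15 and -0.32 by its second probe set, and had a median of -0.22 with the G2/M list, but again 0% of all genes passed with it, with 1638 under an unadjusted p of 0.05. In KD3 the RBL2 medians were 0.43 and 0.45, opposite in sign to those of KD2 (-0.33 and -0.38). Without the arrays of RB1, RBL2 and FOXM1 siRNA they were -0.05 and -0.13 over all batches. RB1 had medians of 0.02 and -0.06, with no target passing, where 0.111% of all genes passed as positive and 0.0303% as negative. LIN37 had 0.28 and 0.29 with no target passing, against 0.0759% and 0.0253% of all genes, and -0.05 and -0.02 by its second probe set. LIN54 (0.29 and 0.21), RBBP4 (0.23 and 0.22) and LIN52 (-0.08 and 0.02) likewise had none, with 0% of all genes passing in either direction and 1598, 1162 and 1376 genes under an unadjusted p of 0.05. By its second probe set LIN52 had medians of 0.35 and 0.27, positive for 33 of 33 and 43 of 44 targets, so its result depends on the probe set.

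Among all genes, those nearest to each of the 10 were chosen from genes above noise, by rho over the 39 arrays. Nearest to FOXM1 were CDCA5 (sororin, which protects sister chromatid cohesion, rho = 0.89), MKI67 (0.84) and the helicase subunit MCM5 (0.83), each at the smallest p that 100000 permutations give (adjusted p = 0.00136), and the sulphate transporter SLC26A2 was lowest (-0.75). Nearest to MYBL2 were separase ESPL1 (0.79), the serine synthesis enzyme PHGDH (0.76) and the spindle protein TACC3 (0.75), with TMEM59 lowest (-0.76). Nearest to LIN9 were the clamp loader subunit RFC3 (0.78), FIGNL1 (0.77) and the checkpoint protein TOPBP1 (0.77), with COQ9 lowest (-0.72). All of these passed. RB1 had CCDC28A (0.71), WIPF1 (0.69) and DCUN1D4 (0.66), adjusted p = 0.0395 to 0.0416. LIN37 had RGS2 (0.68), MSH3 (0.63) and WDR41 (0.63), adjusted p = 0.0456 to 0.0494. RBL1, RBL2, LIN52, LIN54 and RBBP4 had none that passed, the nearest being HSPH1 (0.65), ELK3 (0.61), PHF5A (0.51), GNB4 (0.61) and CEBPZOS (0.61).

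Among 10 partners, the E2Fs and their dimerization partners with the paralogs of RBBP4 and MYBL2, 4 passed with FOXM1, namely TFDP1 (rho = 0.64), E2F2 (0.57), RBBP7 (0.55) and E2F1 (0.51). With MYBL2, TFDP1 (0.69), RBBP7 (0.66) and E2F2 (0.51) passed, and with LIN9, MYBL1 (0.65), E2F1 (0.61), TFDP1 (0.50) and E2F2 (0.50). All were positive. Of 14 measured regulators upstream of the pocket proteins, CCND3 (0.68) and CDK2 (0.51) passed with FOXM1, CCND3 (0.54) with MYBL2, and CDK2 (0.67), CCNE2 (0.60) and CCNE1 (0.57) with LIN9. Among the partners and regulators that passed, E2F1, E2F2, MYBL1, CCNE1 and CCNE2 had medians below noise. Over all genes, 2.94% passed as positive with FOXM1, 2.34% with MYBL2 and 3.02% with LIN9. With MYBL2, 1 of 14 upstream regulators passed, too few to set apart from the share of all genes. No partner or regulator passed with the pocket proteins, and RB1 reached at most 0.46 (CCNE2) and E2F4 was lowest with it at -0.47. The CDK inhibitors CDKN1A and CDKN1C did not pass with any of the 10. These arrays measure RNA alone, so the phosphorylation and assembly of the complexes were not measured.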

How the data were processed

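The authors hybridised A375 RNA to Affymetrix arrays and normalised them with RMA, whose version is not given in the sources used here. The deposited table holds linear intensities between 5.54 and 32065, which were taken to log2 with no further normalisation. Array medians lay between 5.06 and 5.15, arrays have no read depth, and the number of arrays limits the precision. The siRNA concentration differs between the sources and is not given here. Groups came from the labels and batches from the study's list of siRNAs. Of 54675 probe sets, 41097 had 1 gene name, 1801 several and 11777 none. Some listed genes had no probe set of their own name and are not analysed here.

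The members and gene lists were chosen with earlier results of these data known. Named were all members, the genes closest to each above noise, the highest and lowest 3 of each target list, partners that passed, and extreme siRNA arrays. Other genes at the ends of a list were named after their values were seen. Single arrays were set against their batch median with no test, and counted past 0.5 on the log2 scale. Correlations used permutations within batches (Python 3.11.15, numpy 2.4.6, scipy 1.17.1). Control siRNA against untreated and the batches were tested in limma 3.58.1 (R 4.3.3) over all probe sets, adjusted by the Benjamini-Hochberg method at 0.05. Both tests were tested on simulated data. Control siRNA and untreated arrays that carry the same number showed correlated deviations from their group means (r = 0.58, 0.67 and 0.89, the third pair being the near copies). The main fit left this pairing out, so its SEs include the spread between numbers. A fit with the number as a block is given beside it. Alternatives varied the array set, the reference, the probe set, the noise limit, the normalisation and the correlation.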

Additional observations from a re-analysis of the deposited data

Results flagged for a closer look

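In the groups of 4 to 10 arrays, 20 sets of values (10 genes in KD1 and in KD3, without an array's own target) were examined for a lone array, and chance flags about 1 in 20. TCEA1 siRNA stood apart in KD1 with FOXM1 at -0.55, with the gap to the next array making up 0.737 of the range. STAT3 siRNA stood apart in KD3 with RBL2 at 0.32, with a gap of 0.578 of the range.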

How the results depend on the processing

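With 1 array per siRNA, differences below the spread of other arrays of a batch cannot be read as changes. The falls of RB1, RBL2 and FOXM1 kept their direction in every alternative run. RB1 was at -2.10 against all other arrays, -1.14 by the probe set of largest variance and -1.43 over its probe sets, and RBL2 at -1.39 by the probe set of largest variance. Members past 0.5 numbered 2 after RB1 siRNA (FOXM1 and MYBL2, which differ between batches) and 1 after FOXM1 siRNA (RB1), both against all other arrays and against control siRNA. The shares of all genes past 0.5 against these references are not given here, so these counts say nothing particular to the members. The count of 2 correlated pairs became 11 without batch centring, 14 over all 45 arrays uncentred and 1 in KD2 alone. The shares of all genes that passed in these settings are not given here, and uncentred values carry the differences between batches. FOXM1 with LIN9 turned to -0.25 uncentred and -0.30 over 45 arrays, and FOXM1 with MYBL2 lost its call by Pearson's r (adjusted p = 0.13). Above noise, where 5 members remain to be tested, the counts between batches were 4 for KD1 against KD2, 3 for KD3 against KD2 and 4 for KD3 against KD1. Of all 7613 probe sets above noise, 5425, 5825 and 6046 differed in the same order, so most of them did. The G1/S median after FOXM1 siRNA turned to 0.00359 against all other arrays and 0.13 against control siRNA, so its direction depends on the comparison. Against control siRNA, whose batch is not named, the G2/M median after FOXM1 siRNA was -0.28, and after RBL2 siRNA the G1/S median was 0.33 and the G2/M median 0.10. With the replicate block, 0 members differed between control siRNA and untreated, as in every alternative run of that comparison, and RBL2 was at -0.28 with the block (adjusted p = 0.87). FOXM1 in that comparison was at -0.36 without control siRNA array 1 and -0.24 without untreated array 3, and ran from -0.36 to 0.53 when single arrays were left out, while RBL2 ran from -0.47 to -0.10. Of 49 alternative values for counts and falls, 35 stayed within their spread or within 1.5 times.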
